A study of Homo sapiens with 8 samples.

Results

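Copper uptake, copper chaperones and copper export were followed in PANC-1 cells through 10 genes, taken by name from the 20263 genes of the deposited table. SLC31A1 and SLC31A2 stand for uptake, ATOX1 and CCS for the chaperones of the cytosol, COX17, SCO1 and SCO2 for delivery within mitochondria, ATP7A and ATP7B for export, and COMMD1 for a protein that binds the exporters. PANC-1 is an established human pancreatic cancer line derived from the duct epithelium. Cells received 10 μM eupalinolide B (EB), a compound of Eupatorium lindleyanum, or the solvent DMSO alone for 24 h, with 4 biological replicates per group, and mRNA was sequenced. Both groups were the same unmodified line, so treatment is the only difference that the labels give. Copper chelation was among the interventions the study combined with EB in viability assays, and the comparison here asks whether transcripts of the copper route differed after EB. All 10 genes were in the table, and all were matched to a symbol.

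Copper is needed by enzymes that handle oxygen and electrons, but the free ion is toxic, so cells pass it from protein to protein. The importer encoded by SLC31A1 brings reduced copper across the plasma membrane. ATOX1 then carries copper to the P-type ATPases ATP7A and ATP7B in the trans-Golgi network, CCS loads superoxide dismutase SOD1, and COX17 serves SCO1, SCO2 and COX11, which build the copper sites of cytochrome c oxidase. ATP7A and ATP7B fill secreted copper enzymes and, at high copper, move outward and expel the metal. Loss of ATP7A causes Menkes disease and loss of ATP7B causes Wilson disease.

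Promoter sequence is shown for the 2 genes that passed the test, COX17 and COMMD1, for the main importer SLC31A1 and for the exporter ATP7A. In each of these 4 the groups of libraries did not overlap, as was also so for ATOX1, which is not shown. The sequences are from RefSeq on GRCh38.p14, which held 250 bases before the start for 8 of the 10 genes; SCO2 and SLC31A2 have no entry. Bases that lie in an exon of a protein-coding gene were left out of the print. Capitals mark the motifs searched, on both strands: the GC box GGGCGG, which Sp1 binds; the metal response element core TGCACNC or TGCGCNC, known from metallothionein promoters; the antioxidant response element core TGACNNNGC; and the NRF1 motif GCATGCGC. Each runs 5′ to 3′ in the direction of transcription.
COX17, minus strand, chr3:119677455-119677656: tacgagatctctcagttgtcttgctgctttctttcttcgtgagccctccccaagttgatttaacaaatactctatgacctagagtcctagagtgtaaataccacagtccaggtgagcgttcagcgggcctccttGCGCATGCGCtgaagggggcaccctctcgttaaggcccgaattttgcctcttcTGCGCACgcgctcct
SLC31A1, plus strand, chr9:113221459-113221543: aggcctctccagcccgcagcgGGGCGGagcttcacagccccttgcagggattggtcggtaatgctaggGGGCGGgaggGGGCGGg
COMMD1, plus strand, chr2:61905424-61905646: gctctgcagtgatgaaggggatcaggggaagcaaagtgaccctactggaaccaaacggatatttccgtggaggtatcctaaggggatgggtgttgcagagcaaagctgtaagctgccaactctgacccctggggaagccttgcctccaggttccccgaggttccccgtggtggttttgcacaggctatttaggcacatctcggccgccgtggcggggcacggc
ATP7A, plus strand, chrX:77910443-77910689: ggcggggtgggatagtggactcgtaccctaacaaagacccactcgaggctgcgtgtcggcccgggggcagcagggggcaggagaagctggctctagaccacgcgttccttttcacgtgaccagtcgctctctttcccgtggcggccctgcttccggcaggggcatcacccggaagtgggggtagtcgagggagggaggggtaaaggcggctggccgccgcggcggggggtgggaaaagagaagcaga

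The COX17 stretch held an NRF1 palindrome, in which matches on both strands overlap, 116 bases before the start, and a metal response element core 63 bases before it. The SLC31A1 stretch held 3 GC boxes, and the GC box of COMMD1 lay 15 bases before its start, among the bases not printed. No searched motif was found in the ATP7A promoter. Of the 8 promoters, 5 held a GC box (SLC31A1, ATOX1, SCO1, ATP7B and COMMD1), against 42.5% of all 34943 promoters of that length. A metal response element core was in 4 (ATOX1, CCS, COX17 and ATP7B), against 24.8% of all. The ATP7B window in both counts lies before a start 558 bases from that of its main annotated transcript. The antioxidant response element core was in CCS alone, against 10.9% of all, and the NRF1 motif was in COX17 alone, against 2.6% of all. These matches describe the letters of the window and are no evidence of binding.

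Levels are given in TPM, the share of a gene among all transcripts of a library, corrected for transcript length and scaled to the same total in every library, so they can be compared between genes. The table holds no read counts, so depth is unknown. Between 11353 and 11894 genes reached 1 TPM in a library. The 13 mitochondrially encoded genes took 17.0% to 21.1% of TPM in DMSO replicates 1 to 3, 39.0% in DMSO replicate 4 and 11.6% to 20.3% with EB, so DMSO replicate 4 stood apart. It was the lowest DMSO library for 9 of the 10 copper genes, and values without it are given below. EB replicate 4, with the highest mitochondrial share of its group, was the lowest EB library for 7 of the 10. The duct keratins KRT8, KRT18 and KRT19 reached 1 TPM in every library while KRT7 and EPCAM did not, and the 5 duct markers summed to 991 to 1450 TPM in DMSO and 3210 to 3590 TPM with EB, a shift whose part in the copper gene changes was not tested. Of 17 markers of other cell types, 12 were listed at 0 throughout and the 17 summed to at most 1.75 TPM. TPM is a share of the RNA in a library, so fewer transcripts per cell and fewer cells that express a gene cannot be told apart.

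In DMSO the cytosolic chaperone ATOX1 had the highest level of the 10 genes, at 152 ± 18.1 TPM (SD, n = 4), and the exporter ATP7A the lowest, at 1.27 ± 0.27 TPM, a ratio of 120. Between them came CCS at 48.9 ± 10.4, COMMD1 at 29.4 ± 3.88, COX17 at 26.2 ± 5.05, SLC31A1 at 16.2 ± 2.07, SCO1 at 13.3 ± 4.19, ATP7B at 4.46 ± 1.28, SCO2 at 4.22 ± 1.4 and SLC31A2 at 2.2 ± 1.01 TPM. ATOX1, CCS and COX17 thus stood above the importer SLC31A1 in mean, and the importer above both exporters. The ranges of the 4 DMSO libraries overlapped between COMMD1 and COX17, between SLC31A1 and SCO1, and between each neighbouring pair from ATP7B down to ATP7A, while the other neighbours were separate. With EB the order changed in 2 places: COX17 at 52.2 ± 7.02 TPM stood above COMMD1 at 47.8 ± 6.91, and SCO2 at 5.6 ± 2.4 above ATP7B at 2.71 ± 0.632, but in both cases the ranges overlapped. CCS and COX17, clear of each other in DMSO, overlapped with EB.

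**Figure D1:**
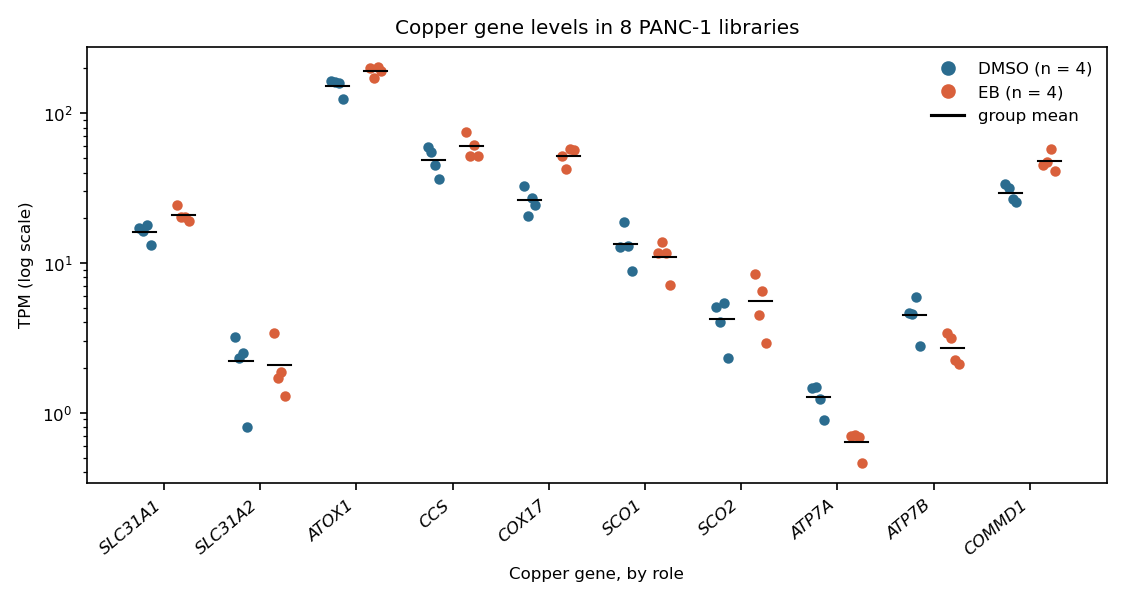
Level of each copper gene in TPM (log axis) in the 4 DMSO (blue) and 4 EB (orange) PANC-1 libraries, genes ordered by role; points are libraries and black lines group means. The EB points lie wholly above the DMSO points for SLC31A1, ATOX1, COX17 and COMMD1 and wholly below them for ATP7A.

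Transcripts of COX17 and COMMD1 were higher with EB, those of the importer SLC31A1 and the chaperone ATOX1 were higher in all 4 EB libraries but missed the adjusted threshold, and those of both exporters were lower in mean. The change was tested with limma on log2(TPM + 1) and adjusted over 11725 genes that reached 1 TPM in at least 4 libraries. 9 of the 10 genes were tested, and ATP7A fell below that filter. At an adjusted p under 0.05, 2 of the 9 were higher and none lower. Over all genes tested, 15.2% were higher and 25.1% lower, and the count of 2 among 9 is to be read against these shares. Without adjustment 5 of the 9 had p under 0.05 (SLC31A1, ATOX1, COX17, ATP7B and COMMD1), near the 50.0% of all genes. None passed the thresholds named in the study, a log2 fold change beyond 1.5 in size at p under 0.05 without adjustment, which 2.08% of all genes did. For 4 of the 9 every EB library lay above every DMSO library, against 16.6% of all genes, and for none did every EB library lie below, against 20.3%, with ATP7A outside this count. The median log2 fold change was 0.31 over the 9 and −0.11 over all genes.

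COX17, the small soluble protein that holds copper for cytochrome c oxidase in the intermembrane space, had the largest log2 fold change of the 9 tested genes. The gene lies at chr3:119654513-119677454 on the minus strand of hg38, with 3 exons and a transcript of 426 nt. Its level was 32.6, 20.7, 27.3 and 24.2 TPM in DMSO replicates 1 to 4 and 51.8, 42.4, 57.8 and 56.6 TPM with EB. The groups did not overlap, and the ratio of mean TPM was 1.99. The log2 fold change was 0.98 (SE 0.17, 95% interval 0.61 to 1.34, limma adjusted p = 0.00195), and the exact two-sided permutation test gave p = 0.0286, the smallest that 4 against 4 libraries allow. Without DMSO replicate 4 it was 0.95 (limma adjusted p = 0.0024). The transcript is the shortest of the 10, and after the trend of each library on transcript length and GC content was removed the log2 fold change was 0.62 (limma adjusted p = 0.00383).

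SCO1 and SCO2, inner-membrane proteins that take copper from COX17 for the CuA site of the oxidase, did not pass the test. SCO1 (chr17:10672474-10698375, minus strand, 6 exons) was at 12.8, 18.9, 12.9 and 8.77 TPM in DMSO and 11.6, 13.7, 11.7 and 7.09 TPM with EB. These ranges overlapped, and the log2 fold change of −0.24 had an interval from −0.78 to 0.30 (limma adjusted p = 0.446). With the length and GC trend removed it was 0.29 (limma adjusted p = 0.188), so its sign depended on that choice, and without DMSO replicate 4 it was −0.41 (limma adjusted p = 0.149). SCO2 (chr22:50523568-50526461, minus strand, 2 exons) was at 5.11, 4.04, 5.42 and 2.31 TPM in DMSO and 8.43, 4.49, 6.54 and 2.92 TPM with EB, and replicate 4 was the lowest library in both groups. Its log2 fold change was 0.31 (95% interval −0.34 to 0.96, limma adjusted p = 0.426). It was 0.10 without DMSO replicate 4, 0.11 without EB replicate 1, 0.53 without EB replicate 4 and 0.00 with the length and GC trend removed, so its size rested on single libraries and on that choice. Of the 984 bases of the SCO2 transcript, 857 are also exonic in NCAPH2 on the opposite strand, which went from 19.3 to 38.8 TPM in DMSO and from 43.0 to 64.0 TPM with EB. Whether counting used the strand is not given in the sources used here, so reads of the 2 genes may be mixed in the SCO2 value.

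The importer SLC31A1 (chr9:113221544-113264492, plus strand, 5 exons, 4762 nt) was at 17.1, 16.3, 18.0 and 13.2 TPM in DMSO and 24.3, 20.3, 20.4 and 19.1 TPM with EB. All 4 EB libraries lay above all 4 DMSO libraries, with a ratio of mean TPM of 1.3. The log2 fold change was 0.36 (SE 0.14, 95% interval 0.06 to 0.67), with a limma adjusted p of 0.0582 and an exact permutation p of 0.0286. The adjusted threshold was passed under 5 of 17 alternatives. It was passed with median-ratio scaling (0.49, limma adjusted p = 0.00231) and with the length and GC trend removed (0.71, limma adjusted p = 0.000399), and it was missed with the mitochondrial genes removed (0.19, limma adjusted p = 0.122) and without DMSO replicate 4 (0.27, limma adjusted p = 0.0633). The related SLC31A2 (chr9:113150976-113164140, plus strand, 4 exons), whose protein sits mainly on endosomes and lysosomes, was at 3.2, 2.32, 2.49 and 0.799 TPM in DMSO and 3.38, 1.7, 1.88 and 1.3 TPM with EB. Its groups overlapped, and its log2 fold change of −0.04 (95% interval −0.66 to 0.58, limma adjusted p = 0.924) changed sign with scaling and with the library left out, and was −0.29 without DMSO replicate 4. Of its 1723 transcript bases, 1582 are exonic in FKBP15 on the opposite strand, which was at 12.9 to 21.0 TPM in DMSO and 17.4 to 25.8 TPM with EB, so the low SLC31A2 value may hold reads of that gene.

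ATOX1 (chr5:151742316-151772532, minus strand, 4 exons, 471 nt) was at 163, 161, 158 and 125 TPM in DMSO and 201, 173, 204 and 190 TPM with EB. Every EB library lay above every DMSO library, with DMSO replicate 4 well below the rest. The log2 fold change was 0.34 (SE 0.13, 95% interval 0.05 to 0.63), with a limma adjusted p of 0.0601 and an exact permutation p of 0.0286. It was 0.25 without DMSO replicate 4 (limma adjusted p = 0.0548) and −0.02 with the length and GC trend removed (limma adjusted p = 0.869). With the mitochondrial genes removed it was 0.16 (limma adjusted p = 0.165). CCS (chr11:66593153-66606019, plus strand, 8 exons, 1066 nt), the chaperone of SOD1, was at 59.2, 55.3, 45.0 and 36.2 TPM in DMSO and 75.2, 51.4, 61.6 and 51.9 TPM with EB. The 4 EB libraries lay above the DMSO mean, but the groups overlapped and the log2 fold change of 0.30 (95% interval −0.12 to 0.72) did not pass (limma adjusted p = 0.229). It was 0.16 without DMSO replicate 4, 0.12 with the mitochondrial genes removed and 0.01 with the length and GC trend removed.

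COMMD1, named for its copper metabolism domain, binds ATP7A and ATP7B and belongs to the Commander complex, which returns membrane proteins from endosomes to the cell surface. The gene (chr2:61888724-62147247, plus strand, 3 exons, 695 nt) was at 33.7, 31.7, 26.9 and 25.5 TPM in DMSO and 45.1, 47.1, 57.5 and 41.4 TPM with EB. The groups did not overlap, and the ratio of mean TPM was 1.62. The log2 fold change was 0.68 (SE 0.15, 95% interval 0.35 to 1.01, limma adjusted p = 0.00584), and the exact permutation p was 0.0286. It was 0.61 without DMSO replicate 4 (limma adjusted p = 0.00608) and 0.32 with the length and GC trend removed (limma adjusted p = 0.0239). COX17 and COMMD1 passed under all 17 alternative fits listed in the closing section, with a log2 fold change of 0.62 to 1.10 for COX17 and 0.32 to 0.81 for COMMD1.

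Both exporters had lower means with EB. ATP7A (chrX:77910690-78050395, plus strand, 23 exons, 8492 nt) was at 1.45, 1.49, 1.23 and 0.897 TPM in DMSO and 0.693, 0.705, 0.688 and 0.459 TPM with EB. Every EB library lay below every DMSO library, and the ratio of mean TPM was 0.5. When limma was fitted without a filter on low values, in which 18.8% of 16142 genes were lower, its log2 fold change was −0.47 (SE 0.10, 95% interval −0.70 to −0.23, limma adjusted p = 0.0132). This figure is on the log2(TPM + 1) scale and is smaller than the change in TPM of so low a gene. In the same fit with the length and GC trend removed it was −0.06 (limma adjusted p = 0.589), and without DMSO replicate 4 it was −0.55 (limma adjusted p = 0.00232). The ATP7A transcript shares 97 of its 8492 bases with PGK1, a far more abundant gene on the same strand. ATP7B (chr13:51930436-52012125, minus strand, 21 exons, 6598 nt) was at 4.62, 4.55, 5.91 and 2.78 TPM in DMSO and 3.38, 3.13, 2.25 and 2.11 TPM with EB. The 4 EB libraries lay below the DMSO mean, but DMSO replicate 4 lay among them. The log2 fold change was −0.54 (SE 0.20, 95% interval −0.98 to −0.10), with a limma adjusted p of 0.0532 and an exact permutation p of 0.0857. Without DMSO replicate 4 it was −0.71 and passed (limma adjusted p = 0.00584), and with the length and GC trend removed it was −0.10 (limma adjusted p = 0.416).

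**Figure D2:**
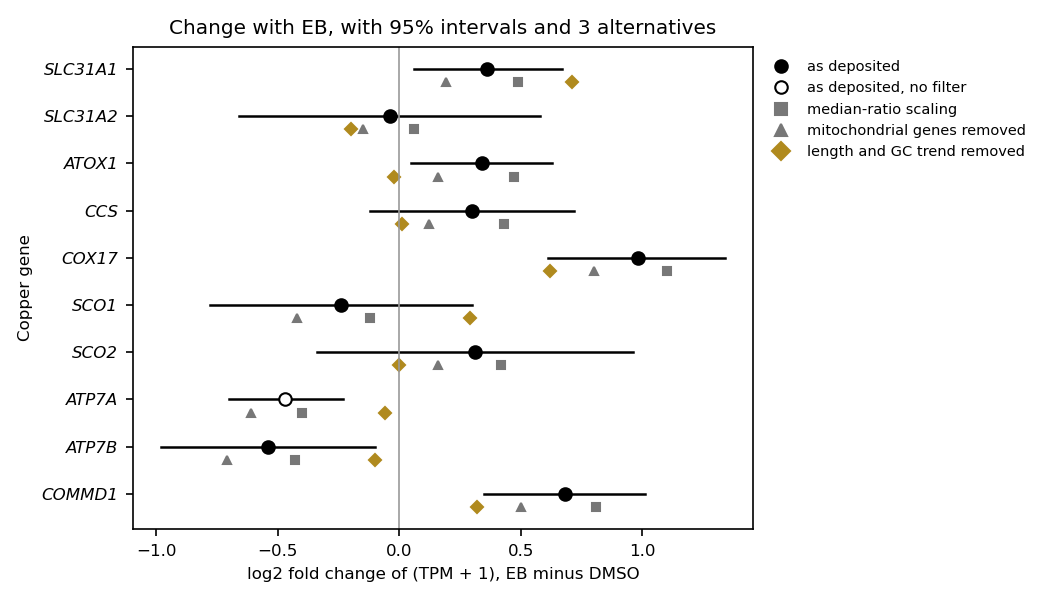
Log2 fold change of (TPM + 1), EB minus DMSO, for each copper gene: black circles with 95% intervals are the limma fit to the TPM as deposited, the open circle is ATP7A without a filter, and grey and gold symbols are 3 alternatives (median-ratio scaling, mitochondrial genes removed, length and GC trend removed). COX17, COMMD1 and SLC31A1 stay above 0 with every symbol, while ATOX1, CCS, SCO2, ATP7A and ATP7B come close to 0 with the length and GC trend removed.

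The level of all genes shifted with the scaling. The median log2 fold change over all genes was −0.11 as deposited, 0.01 with median-ratio scaling, 0.02 with quantile normalization, 0.02 with the length and GC trend removed and −0.28 with the mitochondrial genes removed, and the share of called genes that were higher was 37.7%, 51.1%, 50.2%, 52.9% and 22.7% in that order. Of the 10 copper genes, median-ratio scaling called 5 higher (SLC31A1, ATOX1, CCS, COX17 and COMMD1), against 26.8% of all genes, and 2 lower (ATP7A and ATP7B), against 25.7%. Removal of the mitochondrial genes called 2 higher (COX17 and COMMD1), against 12.1% of all genes, and 2 lower (ATP7A and ATP7B), against 41.4%. Quantile normalization and removal of the length and GC trend each called 3 of 9 tested higher (SLC31A1, COX17 and COMMD1) and 0 lower. ATP7A was below the filter in both. Of all 11725 genes, 2782 were higher and 2764 lower with quantile normalization, and 2869 and 2551 with the trend removed. ATP7B was at −0.22 with quantile normalization (limma adjusted p = 0.165). The mitochondrial share with EB was 11.6%, 14.7% and 12.2% in replicates 1 to 3, below every DMSO library. It overlapped the DMSO range of 17.0% to 39.0% only through EB replicate 4, at 20.3%. In the fit without mitochondrial genes the log2 fold change was 0.80 for COX17, 0.50 for COMMD1, −0.61 for ATP7A and −0.71 for ATP7B.

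Ratios between copper genes within a library cancel a common scale factor, except for what the pseudocount adds at low levels, and 6 pairs were compared. The log2 ratio of importer to exporter, SLC31A1 to ATP7A, was 2.89, 2.80, 3.09 and 2.91 in DMSO and 3.90, 3.64, 3.66 and 3.78 with EB. The groups were separate, and the ratio was 1.77 times higher with EB on the TPM + 1 scale (difference 0.83, exact permutation p = 0.0286, adjusted over 6 pairs 0.0857). The log2 ratio of COX17 to its acceptor SCO1 was 1.29, 0.12, 1.02 and 1.37 in DMSO and 2.07, 1.56, 2.21 and 2.83 with EB, again separate, a difference of 1.22 or 2.33 times (exact permutation p = 0.0286, adjusted 0.0857). Since 0.0286 is the smallest p that 8 libraries allow, neither pair could pass the adjusted threshold unless other pairs were equally extreme, and none of the 6 passed. With a pseudocount of 0.1 in place of 1 the difference for SLC31A1 to ATP7A was 1.26. With the length and GC trend removed the differences were 0.66 for SLC31A1 to ATP7A and 0.33 for COX17 to SCO1.

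The other 4 ratios overlapped between the groups. SLC31A1 to SLC31A2 went from 2.48 ± 0.37 to 2.88 ± 0.25 (SD, n = 4, log2 scale, exact permutation p = 0.143, adjusted 0.214), and SCO1 to SCO2 from 1.46 ± 0.40 to 0.91 ± 0.43 (exact permutation p = 0.114, adjusted 0.214). The log2 ratio of the exporters, ATP7A to ATP7B, was −1.24 ± 0.27 in DMSO and −1.17 ± 0.19 with EB (n = 4, exact permutation p = 0.714). The ratio of the cytosolic chaperones ATOX1 to CCS was 1.63 ± 0.17 in DMSO and 1.68 ± 0.19 with EB (n = 4), the smallest difference of the 6 pairs at 0.05, with the highest p.

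**Figure D3:**
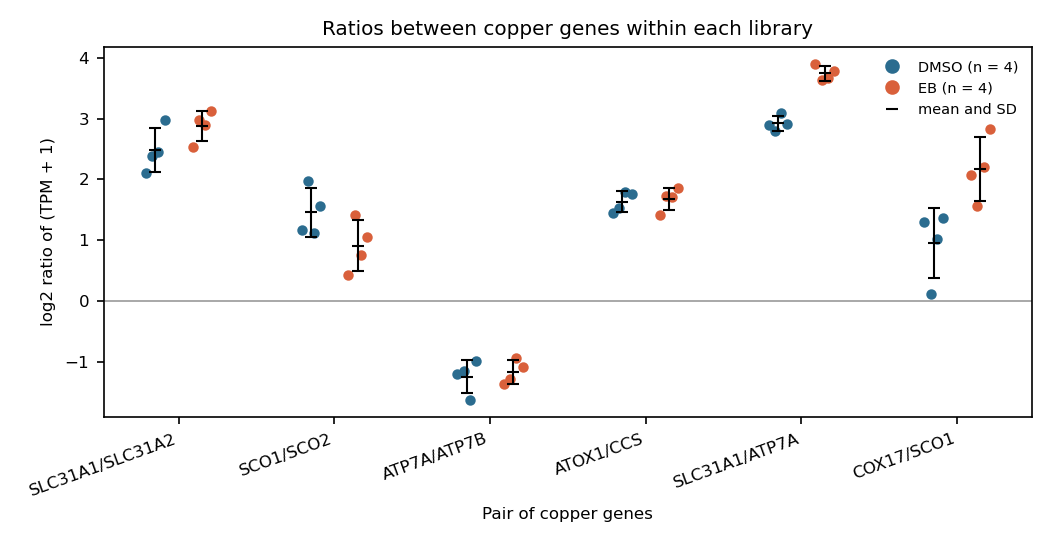
Log2 ratio of (TPM + 1) between pairs of copper genes within each library, DMSO (blue, n = 4) and EB (orange, n = 4); points are libraries, black bars mean and SD. The groups separate for SLC31A1/ATP7A and COX17/SCO1 and overlap for the other 4 pairs.

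Around these 10 genes, 88 other copper genes were grouped by role into 7 lists, of which 67 genes were tested, 15 were higher and 11 lower. Their median log2 fold change was 0.07. Over all genes tested, 15.2% were higher and 25.1% lower, and the counts of each list are to be read against these shares. Among 12 assembly factors that bring copper to cytochrome c oxidase beside COX17, 6 were higher and none lower, with a median of 0.54. Of the called genes, the small twin-cysteine proteins CMC1, CHCHD7 and CMC2 had the highest log2 fold changes: CMC1 went from 12.3 ± 1.92 to 27.8 ± 4.04 TPM (log2 fold change 1.12, SE 0.16, limma adjusted p = 0.000789), CHCHD7 from 6.51 ± 1.54 to 13.8 ± 2.95 TPM (0.98) and CMC2 from 27.2 ± 3.54 to 48.0 ± 4.87 TPM (0.80). Of the mitochondrial acceptors of COX17, COX11 was at 20.1 TPM in DMSO and 6.72 TPM with EB, with a wide error (log2 fold change −1.20, SE 0.45, limma adjusted p = 0.0562). Without DMSO replicate 4 the COX11 change was −1.72 and passed (limma adjusted p = 0.000466). COA7 of the same list then passed as lower too (−0.42, limma adjusted p = 0.00641). In that fit 4333 of all 11725 genes were lower, so the absence of lower assembly factors depended on that library. COX11 and COA7 were outside the rule for named genes and were chosen after their values were seen.

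Of 21 copper enzymes only 7 were tested, and 6 were listed at 0 in every library. SOD1, which receives copper from CCS, rose from 569 ± 57.3 to 886 ± 58.7 TPM (log2 fold change 0.64, SE 0.12, limma adjusted p = 0.00335). The oxidase subunit MT-CO1 fell from 36000 ± 11200 to 20800 ± 4890 TPM (−0.77, SE 0.23, limma adjusted p = 0.0238), though its groups overlapped. DMSO replicate 4, with its high mitochondrial share, enters that DMSO mean, and without it the log2 fold change was −0.58 (limma adjusted p = 0.0281). The 3 tested genes among the metalloreductases and the second importer SLC11A2 were not called, with a median of 0.16.

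COMMD1 had 15 partners on the list of COMMD proteins and retriever subunits, of which 3 were higher and 2 lower. Over all genes the shares were 15.2% and 25.1%, and the median of the partners was 0.20. COMMD6 rose from 20.8 ± 1.97 to 34.3 ± 5.7 TPM (log2 fold change 0.69), COMMD5 from 17.8 ± 8.31 to 37.1 ± 13.4 TPM with overlapping groups (1.07, and 0.75 with limma adjusted p = 0.0639 without DMSO replicate 4), and DENND10, a component of the Commander complex, fell from 63.0 ± 3.57 to 33.4 ± 3.8 TPM (−0.90, SE 0.12, limma adjusted p = 0.000684). The partners thus moved in both directions. Of 11 genes for trafficking and turnover of the exporters, 2 were higher and 1 lower, against 15.2% and 25.1% of all genes. Their median was 0.07. The chaperone CLU, which binds the exporters, rose from 69.5 ± 6.76 to 131 ± 25.0 TPM (0.89), the glutaredoxin GLRX from 3.6 ± 0.419 to 5.21 ± 0.334 TPM (0.44), and the AP-1 adaptor subunit AP1G1 fell from 42.9 ± 8.48 to 26.7 ± 4.57 TPM (−0.65) with overlapping groups.

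Of 15 genes of metal sensing and storage, 11 were tested, with a median of −0.34. Of these, 3 were higher and 4 lower, against 15.2% and 25.1% of all genes. SP1, the factor that binds GC boxes, fell from 34.1 ± 10.4 to 14.7 ± 2.35 TPM (log2 fold change −1.12, SE 0.22, limma adjusted p = 0.00389), and CUTC rose from 21.7 ± 2.92 to 38.1 ± 5.32 TPM (0.79). The metallothionein MT1M fell from 28.9 ± 7.24 to 13.5 ± 2.89 TPM (−1.04, SE 0.21, limma adjusted p = 0.00449), and MT1X from 573 ± 31.6 to 422 ± 59.6 TPM (−0.45, limma adjusted p = 0.0221). MT1A rose from 149 ± 19.8 to 205 ± 12.9 TPM (0.46, limma adjusted p = 0.0189), and MT2A, the most abundant, was at 3530 ± 187 TPM in DMSO and 4040 ± 428 TPM with EB (0.19, limma adjusted p = 0.236). MT1E was at 1020 ± 173 TPM in DMSO and 804 ± 79.0 TPM with EB (−0.34, limma adjusted p = 0.106). Without DMSO replicate 4 the MT1E change was −0.46 (limma adjusted p = 0.00851). Metallothioneins are near-identical copies among which reads may be split. Of 10 genes named for cuproptosis, a copper-dependent cell death that runs through lipoylated mitochondrial enzymes, 9 were tested, none were higher and 3 were lower: DLD (−0.69), DLAT (−0.63) and LIPT1 (−0.49). This is to be read against the 25.1% of all genes that were lower. DLD fell from 59.8 ± 13.7 to 36.2 ± 3.4 TPM, DLAT from 30.6 ± 3.74 to 19.5 ± 3.94 TPM and LIPT1 from 5.35 ± 0.808 to 3.52 ± 0.646 TPM. FDX1, which reduces copper bound to elesclomol, was at 9.28 ± 2.32 TPM in DMSO and 13.9 ± 3.0 TPM with EB (0.54, limma adjusted p = 0.0512), and the lipoyl synthase LIAS was at 10.3 ± 0.337 and 12.9 ± 1.9 TPM (0.30, limma adjusted p = 0.0864), with every EB library above every DMSO library. FDX1 and LIAS, like MT1A, MT1E, MT1X and MT2A, were named after their values were seen.

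**Figure D4:**
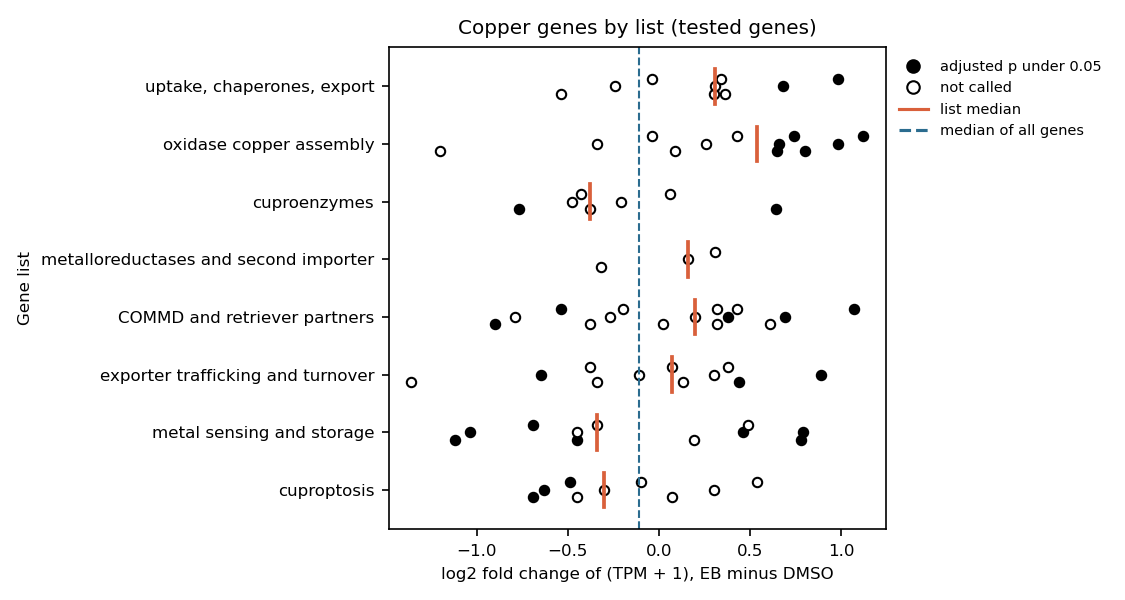
Log2 fold change of (TPM + 1), EB minus DMSO, of every tested gene in the copper gene group and in the 7 other lists; filled points passed at a limma adjusted p under 0.05, orange bars are list medians and the dashed line is the median of all genes (−0.11). The median is 0.31 for the uptake, chaperone and export genes, highest for oxidase copper assembly (0.54) and lowest for the cuproenzymes (−0.38).

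The profile of COX17 over the 8 libraries was compared with that of every tested gene by the root mean square distance of log2(TPM + 1), each taken from its DMSO mean. The nearest were PTS, an enzyme of tetrahydrobiopterin synthesis, at a distance of 0.127, the histone gene H2BC4 at 0.134 and CCDC167 at 0.137. Their transcripts were 872, 460 and 572 nt, short like the 426 nt of COX17. The part of transcript length in this likeness was not tested. PTS went from 11.1 to 22.3 TPM, H2BC4 from 1.16 to 3.61 TPM and CCDC167 from 14.4 to 26.3 TPM. No copper gene on the list was called lower, so no such comparison was made for a fall.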

How the data were processed

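PANC-1 mRNA libraries, 4 treated with DMSO and 4 with 10 μM EB, were grouped by the labels. The authors deposited TPM computed within each library. Their methods name CLC Genomics Workbench 11.0.1 for trimming, mapping, counting and normalization, with HISAT2 2.1.0 and StringTie 1.3.3b, and give both a mouse and a human genome, while the table holds human identifiers. Columns named C were taken as DMSO and columns named H as EB, since the control column letter matches and only 2 groups exist. The table holds no counts, so depth per library and counting error are unknown. Of 20263 identifiers, 20148 matched a symbol in GENCODE.

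From the deposited TPM, limma 3.58.1 in R 4.3.3 was fitted to log2(TPM + 1) for genes that reached 1 TPM in 4 or more libraries (lmFit, eBayes without trend, prior degrees of freedom 3.88), with Benjamini-Hochberg adjustment over 11725 genes. ATP7A was fitted without the filter. Exact two-sided permutation tests used all 70 assignments. The length and GC trend was removed from each library by natural splines with 4 degrees of freedom. The code was tested on simulated data. Named genes are the 10 copper genes, at most 3 called genes per other list with the largest absolute change, and the 3 genes nearest to the called copper gene with the largest rise. The genes and lists were chosen with earlier results of these data known. Alternatives covered the pseudocount, filter, scaling, length and GC content, variance model, replicate block, threshold and each library left out.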

Additional observations from a re-analysis of the deposited data

Results flagged for a closer look

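In 34 groups of 4 values checked, 2 held a library far from the others by Dixon's criterion, and chance alone gives about 1 in 20. The ATOX1 level in DMSO replicate 4 was 125 TPM, against 158 to 163 TPM in the other DMSO libraries, and the gap was 0.885 of the range of the group. The ATP7A level in EB replicate 4 was 0.459 TPM, against 0.688 to 0.705 TPM in the other EB libraries, a gap of 0.932 of the range. Mitochondrially encoded genes took 39.0% of TPM in DMSO replicate 4 and 20.3% in EB replicate 4, the highest share of each group, and the part of this share in the low values was not tested.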

How the results depend on the processing

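COX17 and COMMD1 passed under every alternative fit. Copper genes called higher (2 as reported) were 4 without a filter, 5 with median-ratio scaling, 0 at the study's thresholds and 2 with each library left out. Those called lower (0 as reported) were 1 without a filter, 2 with median-ratio scaling, 2 with the mitochondrial genes removed and 0 to 1 with each library left out (1, ATP7B, without DMSO replicate 4). Of all 16142 genes without a filter, 1903 were higher and 3036 lower. With median-ratio scaling 26.8% of all genes were higher and 25.7% lower, and 41.4% were lower with the mitochondrial genes removed. The labels do not say whether replicate numbers pair the libraries. Deviations of same-numbered libraries correlated at 0.18, 0.05, −0.09 and 0.28, and 4 of 8 libraries correlated best with their own number. These values do not settle whether the libraries are paired. With the replicate block, 5756 genes were called in place of 4729, of which 2231 were higher and 3525 lower. In that fit 3 copper genes were higher and 1 lower, and 19 of the other copper genes were lower. Of the other copper genes, 25 were higher with median-ratio scaling in place of 15, and 26 were lower with the mitochondrial genes removed in place of 11. Leaving out a library gave 12 to 17 higher and 7 to 23 lower, with 23 without DMSO replicate 4 and 7 without DMSO replicate 2, DMSO replicate 3 or EB replicate 3. Of all genes, 3152 were higher with median-ratio scaling, 2782 with quantile normalization, 2869 with the length and GC trend removed and 63 at the study's thresholds, in place of 1785. Lower were 4954 with the mitochondrial genes removed and 181 at the study's thresholds, in place of 2944. Leaving out a library gave 1270 to 1826 genes higher and 2073 to 4333 lower. The log2 fold change changed sign for SLC31A2 with median-ratio scaling (0.06), quantile normalization (0.25) and libraries left out (−0.29 to 0.11), and with the length and GC trend removed for ATOX1 (−0.02) and SCO1 (0.29). The log2 ratio difference changed sign for ATP7A to ATP7B with a pseudocount of 0.1 (−0.21) and libraries left out (−0.05 to 0.16), for SCO1 to SCO2 with the trend removed (0.29), and for ATOX1 to CCS with the trend removed (−0.02) and libraries left out (−0.02 to 0.14). The fits of ATP7A under each alternative without a filter were added after the data were seen. With a minimum of 5 TPM, 7 copper genes were tested, and SLC31A2, ATP7A and ATP7B gave no value. The causes were not tested. The unknown depth limits the low genes ATP7A and SLC31A2 most.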
